A study of Mus musculus with 4 samples.

Results

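The 8 genes described here are Begain, Dlk1, Meg3, Rtl1, Rian, Mirg, Dio3 and Dio3os, out of 55341 gene symbols in the annotation. They were chosen by name as the genes of the Dlk1-Dio3 cluster on mouse chromosome 12. No measured value entered that rule, but earlier results of these data were known when the choice was made. Around them, 44 of 61095 initiation regions of the series lay between chr12:109352823 and chr12:110381097 (GRCm38), from 100 kb before Dlk1 to 100 kb after Dio3. Begain lies further upstream, at chr12:109032187-109068217, and with the stretch up to it the number of regions was 47.

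The series holds 4 PRO-seq libraries, 2 from liver and 2 from yolk sac, from mouse embryos at E14.5. PRO-seq is a nuclear run-on assay that marks RNA polymerases engaged in transcription. Every embryo had a C57BL/6J mother and a father of mixed C57BL/6J and CAST/EiJ background that carried only CAST/EiJ sequence at the cluster. The sample labels spell C57BL/6J as C57BL/6h. Each library came from tissue of 6 pooled embryos that was frozen and powdered, and the run-on used isolated chromatin. The labels do not say whether replicates came from separate pools or litters, so the spread between them may be technical, and the p-values speak only of these libraries. No value below separates the maternal from the paternal copy. In pooled tissue, fewer cells of a type and less RNA per cell cannot be told apart.

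The Dlk1-Dio3 cluster is imprinted, which means that its genes are expressed from 1 parental copy. The protein-coding genes Dlk1, Rtl1 and Dio3 are expressed mainly from the paternal copy, and the noncoding RNA genes Meg3 (also called Gtl2), Rian and Mirg from the maternal copy. An intergenic differentially methylated region (IG-DMR) between Dlk1 and Meg3, methylated on the paternal copy, controls this pattern. Its bounds are not in the sources used here, so no region below was assigned to it.

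The deposited values are peaks called by dREG, a classifier that finds promoters and enhancers from run-on reads, and each peak has a start, an end and a score. Scores were used only as a rank within a list, written as a percentile in which 100 is the highest-scoring peak. A percentile describes how strongly the classifier called an initiation region, and not a level of transcription. There were 24863 and 24333 peaks for the liver replicates but 50525 and 43055 for yolk sac, and the read depth behind them is unknown. A percentile is therefore taken over more peaks in yolk sac than in liver. The list medians of the width were 1052 and 1002 bp for liver against 902 and 852 bp for yolk sac. All 8 erythroid markers, such as Gata1 and Klf1, had a promoter peak in both liver libraries and 2 of 8 did in each yolk sac library, where Gata1, Klf1, Alas2, Hbb-bt, Slc4a1 and Ermap had none. All 8 markers of yolk sac endoderm had one in both yolk sac libraries and 6 and 4 of 8 in liver, where Amn and Cubn had none in either library. Of 8 hepatoblast markers, 7 and 6 had a peak in liver and 6 and 6 in yolk sac. Of 8 mesenchymal markers, 4 and 7 had a peak in liver and 8 and 8 in yolk sac, and of 6 endothelial markers 4 and 4 in liver and 6 and 6 in yolk sac. Of 4 macrophage markers, 2 and 2 had one in liver and 4 and 3 in yolk sac. What part these cell types have in the differences below was not tested.

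With 2 libraries against 2, an exact two-sided permutation test has 6 assignments and cannot give a p below 0.333. Groups that do not overlap give this p whatever the size of the gap, so it does not measure the spread. A region is therefore called higher in a tissue when both of its libraries exceeded both of the other tissue.

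Promoter sequences are shown for the 5 genes that had a promoter peak, since the peaks differ in where they sit relative to these bases. Each is the 200 bases before a RefSeq start site (GRCm38.p6), 5′ to 3′ on the gene's strand. Capitals mark matches, on either strand, to 5 motifs. These are GGGCGG (the GC box bound by SP factors), TATAAA (the TATA box), TGCCGC (the motif of the imprint-protecting protein ZFP57), AGATAA (bound by GATA factors) and the related TGATAA. Of 32851 RefSeq windows running from 250 bases before to 50 after a start, these motifs were found in 35.7%, 13.6%, 11.6%, 11.2% and 9.05%. A match is a string of letters and not a shown binding site.
Begain, upstream start, chr12:109068218-109068417, minus strand: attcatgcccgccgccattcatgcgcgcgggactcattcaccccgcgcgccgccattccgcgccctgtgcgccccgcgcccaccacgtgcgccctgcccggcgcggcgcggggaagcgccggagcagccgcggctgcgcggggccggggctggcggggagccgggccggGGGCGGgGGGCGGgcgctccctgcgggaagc
Begain, internal start, chr12:109053757-109053956, minus strand: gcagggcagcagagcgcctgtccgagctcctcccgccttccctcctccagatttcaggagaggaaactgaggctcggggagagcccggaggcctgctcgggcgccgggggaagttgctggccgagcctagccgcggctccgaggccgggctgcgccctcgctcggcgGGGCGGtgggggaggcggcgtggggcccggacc
Dlk1, chr12:109452623-109452822, plus strand: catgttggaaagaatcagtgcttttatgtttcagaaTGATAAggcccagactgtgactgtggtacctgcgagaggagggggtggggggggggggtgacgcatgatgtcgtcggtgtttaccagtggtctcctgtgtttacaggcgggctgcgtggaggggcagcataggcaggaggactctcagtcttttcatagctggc
Meg3, chr12:109540796-109540995, plus strand: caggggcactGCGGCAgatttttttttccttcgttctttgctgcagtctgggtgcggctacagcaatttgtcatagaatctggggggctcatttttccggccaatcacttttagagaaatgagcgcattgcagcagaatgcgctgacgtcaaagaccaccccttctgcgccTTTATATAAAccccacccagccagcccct
Dio3, chr12:110279030-110279229, plus strand: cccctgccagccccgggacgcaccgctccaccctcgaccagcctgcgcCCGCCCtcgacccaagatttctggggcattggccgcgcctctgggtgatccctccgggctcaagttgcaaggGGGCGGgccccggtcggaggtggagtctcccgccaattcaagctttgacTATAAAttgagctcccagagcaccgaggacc
Dio3os, chr12:110278069-110278268, minus strand: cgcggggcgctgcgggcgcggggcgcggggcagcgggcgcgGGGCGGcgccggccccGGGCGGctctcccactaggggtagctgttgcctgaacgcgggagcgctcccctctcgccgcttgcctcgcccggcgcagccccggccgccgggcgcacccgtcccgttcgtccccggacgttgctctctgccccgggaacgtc

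The windows differed in CG dinucleotides, the sites at which DNA is methylated. The median over all RefSeq windows was 7. The window of the Dio3os start held 53, that of the upstream Begain start 46, that of Dio3 25, that of Meg3 13 and that of Dlk1 9. Dlk1 carried a TGATAA match at -164 and none of the other 4 motifs. Meg3 carried TATAAA matches on both strands that share bases, at -29 and -25, and a TGCCGC match on the minus strand at -190. Dio3 carried a TATAAA match at -31 and 4 GGGCGG matches, and Dio3os carried GGGCGG at -159 and -143. The windows of Rian and Mirg held 0 and 10 CG dinucleotides.

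Dlk1 encodes a transmembrane protein of the Notch ligand type that restrains differentiation and is made by many embryonic cells. Its promoter peak stood at percentiles 28.8 and 35.0 in the liver libraries and 61.5 and 49.9 in the yolk sac libraries. The yolk sac libraries were both higher, and the groups did not overlap. The means were 31.9 ± 4.41 and 55.7 ± 8.20 (SD, n = 2 each), a difference of 23.8 percentile points (exact permutation p = 0.333). Counted from the top of its list, however, the peak had rank 17703 and 15809 in liver and 19464 and 21579 in yolk sac, so more peaks outscored it in yolk sac. When every list was shortened to its 24333 best-scoring peaks, the length of the shortest list, the difference turned to -15.5 points. Among the regions present in all 4 libraries it was 10.3 points in favour of yolk sac.

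The Dlk1 peak was the 1 member promoter peak that was wider in bp in both liver libraries. Its width was 1902 and 2152 bp in liver and 1702 and 1602 bp in yolk sac, with means of 2027 ± 177 and 1652 ± 70.7 bp (SD, n = 2 each; 0.82-fold, yolk sac over liver; exact permutation p = 0.333). Divided by the median width of its list it was 1.81 and 2.15 in liver and 1.89 and 1.88 in yolk sac, which overlapped. In all 4 libraries the peak began inside the gene, 28 bp after the first start site in liver replicate 1 and 128 bp after it in the other libraries, and it covered 6 of the 9 annotated start sites. None of the 200 Dlk1 bases printed above lay in a peak. Liver replicate 1 had a further peak near the 3′ end of Dlk1, at chr12:109460901-109462052 (percentile 29.3), which no other library had.

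Dio3 encodes the deiodinase that inactivates thyroid hormone, and Dio3os is a noncoding RNA gene transcribed in the opposite direction from next to it. A single peak spanned both starts or reached close to both, so their initiation cannot be told apart in these lists. It stood at percentiles 64.1 and 58.3 in liver and 69.4 and 72.5 in yolk sac. Yolk sac values were higher without overlap, with means of 61.2 ± 4.09 and 70.9 ± 2.23 (SD, n = 2 each; difference 9.74 points; exact permutation p = 0.333). Ranked among the regions present in all 4 libraries the difference was 1.70 points with overlapping groups (exact permutation p = 0.667), and among the 24333 top peaks it was -16.9 points.

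The width of this peak separated the tissues more plainly. It was 1152 and 1652 bp in liver and 2902 and 2352 bp in yolk sac, with means of 1402 ± 354 and 2627 ± 389 bp (SD, n = 2 each; 1.87-fold; exact permutation p = 0.333). The extra width lay on the Dio3os side. The peak reached 617 and 1167 bp upstream of the first Dio3 start in liver and 2167 and 1867 bp in yolk sac. It reached 534 and 484 bp downstream of that start in liver and 734 and 484 bp in yolk sac. Of the 4 annotated Dio3os start sites, the peak covered 0 and 3 in liver and all 4 in both yolk sac libraries. The 200 printed Dio3os bases lay outside the peak in liver replicate 1 and wholly inside it in the other 3 libraries, whereas the printed Dio3 bases lay inside it in all 4.

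Meg3 produces a noncoding RNA that is a principal maternal transcript of the cluster. Its promoter peak stood at percentiles 44.3 and 40.4 in liver and 70.0 and 53.2 in yolk sac. Both yolk sac libraries were higher, with means of 42.4 ± 2.78 and 61.6 ± 11.9 (SD, n = 2 each; difference 19.2 points; exact permutation p = 0.333). The yolk sac replicate 1 peak also spanned an upstream stretch that held a separate peak in the other libraries. Its percentile is therefore not for the promoter alone, as it is in those libraries. Without yolk sac replicate 1 the difference was 10.8 points. The rank from the top was 13842 and 14505 in liver and 15144 and 20157 in yolk sac, so again fewer peaks outscored it in liver. For the whole region around the promoter, the difference among the regions present in all 4 libraries was 16.0 points in favour of yolk sac and that among the 24333 top peaks was -7.07 points.

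The Meg3 peak measured 2502 and 1352 bp in liver and 4752 and 2702 bp in yolk sac, with means of 1927 ± 813 and 3727 ± 1450 bp (SD, n = 2 each; 1.93-fold, or 0.95 on the log2 scale; exact permutation p = 0.333). The log2 ratio was 0.49 without yolk sac replicate 1, 0.57 without liver replicate 2 and 1.46 without liver replicate 1. Yolk sac replicate 1 stood out, with a peak that began 2600 bp before the first Meg3 start, against 450, 550 and 650 bp in liver replicates 1 and 2 and yolk sac replicate 2. The other 3 libraries had a separate peak there. It measured 702 bp in liver replicate 1 (chr12:109538851-109539552, percentile 42.6) and 502 bp in liver replicate 2 (chr12:109538951-109539452, percentile 13.2). In yolk sac replicate 2 it measured 1302 bp (chr12:109538401-109539702), and its percentile of 61.3 was above that of the Meg3 promoter peak of the same library. The yolk sac replicate 1 peak started at the same base and ran on to chr12:109543152. The printed Meg3 bases lay inside the promoter peak in all 4 libraries.

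Begain encodes a scaffold protein first described in neurons, and it lies outside the interval of the other 7 genes. At its upstream start the peak stood at percentiles 47.5 and 79.2 in liver and 78.3 and 81.8 in yolk sac. Liver replicate 1 lay far below the other libraries, and the groups overlapped (exact permutation p = 0.667). Widths were 1252 and 1252 bp in liver and 1352 and 1152 bp in yolk sac, which also overlapped. A second peak, at the internal start sites, was found in each yolk sac library and was absent from liver. It was 1752 bp wide at percentile 45.9 in replicate 1 and 952 bp wide at percentile 33.3 in replicate 2, and it held all of the printed bases of the internal start.

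Rtl1, Rian and Mirg had no promoter peak in any library, the limit being 500 bp from an annotated start. Rtl1 encodes a retrotransposon-derived protein needed in fetal vessels of the placenta, Rian hosts small nucleolar RNAs and microRNAs, and Mirg hosts microRNAs. The peak nearest to a Rian start was 3955 and 4155 bp away in liver, 60788 bp in yolk sac replicate 1 and 4725 bp in replicate 2. For Rtl1 the distances were 7671 and 7871 bp in liver and 57178 and 13628 bp in yolk sac. The liver distances of both genes came from 1 region in a Rian intron, chr12:109608001-109608952, which was present in both liver libraries at percentiles 11.9 and 18.9 with widths of 802 and 752 bp. For Mirg the nearest peak lay 1937 bp from a start in liver replicate 2, at percentile 5.11, and 91237 bp or more away in the other libraries. Yolk sac replicate 2 had 2 short peaks in this stretch, at chr12:109586601-109586702 (102 bp, percentile 19.8) and chr12:109615301-109615602 (302 bp, percentile 23.0).

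The order of the member promoters within a list was clearer in liver than in yolk sac. In liver the ranges ran from Dlk1 (28.8 to 35.0) through Meg3 (40.4 to 44.3) to the Dio3 and Dio3os peak (58.3 to 64.1), without overlap between neighbours, and Begain (47.5 to 79.2) overlapped the last. In yolk sac Dlk1 (49.9 to 61.5) overlapped Meg3 (53.2 to 70.0), and Meg3 overlapped Dio3 (69.4 to 72.5), while Begain (78.3 to 81.8) lay above all of them. In the 11787 protein-coding genes with a promoter peak in all 4 libraries the median percentile was 68.5 and 68.7 in liver and 72.8 and 73.4 in yolk sac. Member peaks at Dlk1, at Meg3 and at Dio3 with Dio3os were below that median in all 4 libraries.

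Of the 3 protein-coding members with a promoter peak, Dlk1 and Dio3 were higher in both yolk sac libraries and none was higher in both liver libraries. Over the 11787 protein-coding genes, 34.4% were higher in yolk sac and 22.1% in liver. Of the 9 neighbouring genes with a peak in all 4 libraries, 5 were higher in yolk sac and 1 in liver. Wars and Wdr25, a tRNA synthetase gene and its divergent neighbour, share 1 peak and count as 2 of the 5. Slc25a29, which encodes a mitochondrial carrier of basic amino acids, was the 1 higher in liver (99.3 and 93.8 against 77.4 and 79.1). Degs2, a sphingolipid enzyme gene, had a promoter peak in yolk sac (82.4 and 75.9) and none in either liver replicate.

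The protein-coding genes whose 4 percentiles lay closest to those of Dlk1, among 11350, were Sox11 (distance 5.50 points over the 4 libraries), Fbln1 (6.33) and Fam174b (7.23). Sox11 encodes a transcription factor of developing tissues and Fbln1 an extracellular matrix protein. Those closest to Meg3, among 11351, were Slc35b2 (3.40), Nxt1 (3.88) and Mau2 (4.90). With 4 values a gene, such likeness is a description only.

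The stretch of 77.7 kb that separates Dlk1 from Meg3 held 12 regions. They are given in order from Dlk1, each with the distance of its midpoint from the first Meg3 start, negative on the Dlk1 side. The region at -45.7 kb (chr12:109494801-109495702), in an intron of the predicted gene Gm34081, was present in both yolk sac libraries only. Its percentile was 37.3 in each, while its width was 902 bp in replicate 1 and 202 bp in replicate 2.

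The region at -40.0 kb (chr12:109500251-109501652), in an intron of the same gene, was the strongest of the interval in every library. It stood at percentiles 79.7 and 62.0 in liver and 86.4 and 99.8 in yolk sac, and in yolk sac replicate 2 it was number 69 of 43055 peaks. The means were 70.8 ± 12.5 and 93.1 ± 9.51 (SD, n = 2 each; difference 22.3 points; exact permutation p = 0.333), with no overlap. It was also wider in yolk sac, at 1352 and 1202 bp against 702 and 952 bp in liver (means 1277 ± 106 and 827 ± 177 bp, SD, n = 2 each; 1.54-fold; exact permutation p = 0.333). The mean was higher in yolk sac under each of the 4 ways of ranking, with differences from 10.8 to 27.5 points. The groups overlapped, however, within the 24333 top peaks (79.2 and 62.0 in liver against 71.7 and 99.7), and without liver replicate 2 the difference in the whole list was 13.5 points.

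The region at -31.6 kb (chr12:109508851-109509952) was absent from liver replicate 2. Its percentile was 16.5 in liver replicate 1 and 23.8 and 45.5 in yolk sac, with widths of 802, 1052 and 902 bp. The region at -28.0 kb (chr12:109512251-109513702) was present in yolk sac only, at percentiles 38.1 and 61.7 and widths of 1202 and 1452 bp, and it was the widest yolk-sac-only region of the interval. The regions at -22.9 kb (chr12:109518001-109518102) and -19.1 kb (chr12:109521751-109522102) were each in 1 library. The first was a 102 bp peak at percentile 8.68 in yolk sac replicate 1, and the second a 352 bp peak at percentile 2.60 in liver replicate 1, so both were near the bottom of their lists.

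The region at -15.1 kb (chr12:109525651-109526202) was present in yolk sac only, at percentiles 34.1 and 50.1 and widths of 502 and 452 bp. The next, at -13.0 kb (chr12:109527501-109528552), was in both liver libraries at percentiles 32.2 and 36.5 and widths of 852 and 702 bp. It was also in yolk sac replicate 1, at percentile 22.5 and 502 bp, and absent from yolk sac replicate 2, so every liver value exceeded the 1 yolk sac value.

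The region at -9.2 kb (chr12:109531301-109532252), over an exon of the predicted gene Gm27528, was present in all 4 libraries. It stood at percentiles 44.0 and 38.7 in liver and 13.0 and 40.0 in yolk sac. A liver mean of 41.4 ± 3.78 exceeded the yolk sac mean of 26.5 ± 19.1 (SD, n = 2 each), but yolk sac replicate 2 lay between the liver values (difference -14.9 points; exact permutation p = 0.667). Without yolk sac replicate 1 the difference was -1.36 points, and without replicate 2 it was -28.4 points. Its width did separate the tissues, at 952 and 902 bp in liver and 352 and 602 bp in yolk sac (means 927 ± 35.4 and 477 ± 177 bp, SD, n = 2 each; 0.51-fold, or -0.96 on the log2 scale, and -0.62 without yolk sac replicate 1; exact permutation p = 0.333). Among the regions present in all 4 libraries its rank was also higher in both liver libraries (-18.3 points, yolk sac minus liver; exact permutation p = 0.333).

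The region at -7.4 kb (chr12:109533251-109533952) repeated the pattern of that at -13.0 kb. It was in both liver libraries at percentiles 38.9 and 37.8 and widths of 652 and 702 bp, and in yolk sac replicate 1 as a 102 bp peak at percentile 11.5. The region at -4.3 kb (chr12:109536501-109536952) was present in yolk sac only, at percentiles 21.6 and 37.3 and widths of 402 and 452 bp. The last of the 12 (chr12:109538401-109543152) is the Meg3 promoter region with the upstream peak described above. Thus the 3 regions at -13.0, -9.2 and -7.4 kb were wider in both liver libraries than in any yolk sac library that had them. Yolk sac replicate 2 lacked 2 of the 3. These 3 regions were grouped after their values were seen.

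**Figure D1:**
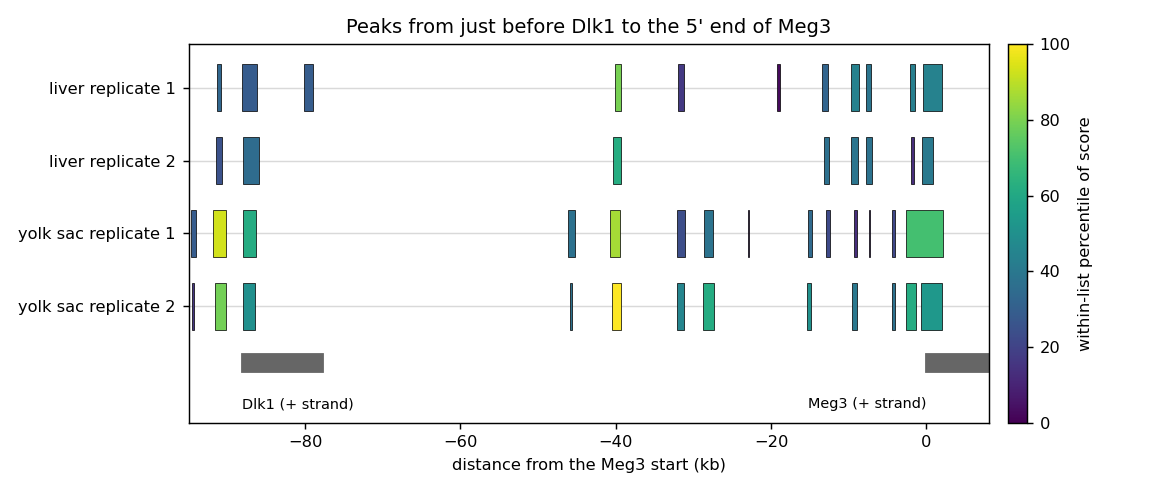
Map of the peaks of each library from just before Dlk1 to the 5′ end of Meg3, with the distance from the Meg3 start in kb on the horizontal axis. Each box is 1 peak drawn to scale, its colour is the within-list percentile of its score, and the grey bars are the genes. Among the peaks that lie between Dlk1 and Meg3, the peak at -40 kb has the lightest colour in every row. Yolk sac replicate 1 has 1 long box across the Meg3 start.

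In sum over the interval, peaks covered 5464 and 4310 bp in liver and 9070 and 7216 bp in yolk sac, with means of 4887 ± 816 and 8143 ± 1311 bp (SD, n = 2 each; 1.67-fold; exact permutation p = 0.333). The yolk sac lists cover more of the genome, and per Mb covered by the whole list the values were 184 and 156 bp in liver and 168 and 165 bp in yolk sac, which overlapped (0.98-fold). The mean width of a peak there was 716 and 752 bp in liver and 1020 and 821 bp in yolk sac. Peaks were assigned by midpoint, so the mean of yolk sac replicate 1 includes its whole 4752 bp peak across the Meg3 start. The Meg3 promoter peaks of the other libraries fell outside the interval, so these means do not compare like peaks. The median width was 702 and 702 bp against 502 and 752 bp, which overlapped. With only the upper 50% of the peaks by score, the covered length was 702 and 952 bp in liver and 3952 and 5058 bp in yolk sac. With the 24333 top peaks of each list it was 5464 and 4310 bp against 3952 and 5960 bp, and the groups overlapped.

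On the far side of Dlk1, the region at -91.0 kb (chr12:109449201-109450852), just before the Dlk1 start, gave the widest gap in whole-list percentile among the 10 cluster regions present in the 4 libraries. Ranked among promoter or other peaks, the gap was wider at 3 of the other regions. They include the Meg3 region (41.4 against 41.3 points), where the upstream peak of yolk sac replicate 2 was ranked with the other peaks. With the Meg3 promoter peak of each library, that difference was 17.9 points. The region at -91.0 kb stood at percentiles 33.0 and 25.2 in liver and 93.0 and 78.7 in yolk sac, a difference of 56.7 points (means 29.1 ± 5.56 and 85.9 ± 10.1, SD, n = 2 each; exact permutation p = 0.333). Its width was 502 and 752 bp in liver and 1652 and 1352 bp in yolk sac (2.40-fold). The direction held under all 4 ways of ranking, with differences from 41.3 to 63.1 points. The region at -103.6 kb (chr12:109436151-109438602) was the opposite case, at percentiles 83.1 and 72.6 in liver and 72.5 and 63.7 in yolk sac, a difference of -9.74 points (exact permutation p = 0.333). It was -4.49 without liver replicate 1, -15.0 without liver replicate 2 and -5.32 without yolk sac replicate 2. Liver replicate 2 and yolk sac replicate 1 were almost equal there, and the widths of 2152 and 2102 bp in liver and 2352 and 1902 bp in yolk sac overlapped.

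In the 100 kb before Dlk1, where 5 regions were in yolk sac only, the highest mean percentile was at chr12:109417151-109418652, with 89.8 and 71.1 and widths of 1502 and 1152 bp. A region at chr12:109397251-109397952 stood at percentile 97.5 in yolk sac replicate 2 and 52.6 in replicate 1. The 1 liver-only region there, chr12:109441601-109442402, was weak, at a mean percentile of 17.5.

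Between Mirg and Dio3 the peaks of the yolk sac were wide. The regions at +680.1 kb (chr12:110219551-110222552) and +690.4 kb (chr12:110230001-110232802) were present in all 4 libraries, as short weak peaks in liver and as long ones in yolk sac. The first stood at percentiles 24.9 and 16.3 in liver and 76.5 and 72.8 in yolk sac, with widths of 502 and 802 bp against 3002 and 2802 bp (4.45-fold; exact permutation p = 0.333). The second stood at 17.9 and 10.9 in liver and 62.4 and 54.8 in yolk sac, with widths of 502 and 302 bp against 2802 and 2702 bp (6.85-fold; exact permutation p = 0.333). Both were higher in yolk sac under all 4 ways of ranking, by 31.8 to 54.0 points and by 7.51 to 46.4 points.

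The region at +483.2 kb (chr12:110022551-110025802), over an exon of the predicted gene Gm34667, stood at percentiles 37.8 and 53.3 in liver and 52.3 and 63.0 in yolk sac, which overlapped (exact permutation p = 0.667). It was nonetheless wider in yolk sac, at 3252 and 3052 bp against 1552 and 2152 bp (1.70-fold; exact permutation p = 0.333). Of the 9 yolk-sac-only regions in this interval, the strongest was chr12:110153951-110157002, over an exon of 3110009F21Rik, at percentiles 87.9 and 85.1 and widths of 3052 and 2852 bp. The region at chr12:110214101-110216152 followed, at 81.1 and 82.7 and widths of 1902 and 2052 bp. Peaks covered 3425 and 4825 bp of this interval in liver and 24345 and 22193 bp in yolk sac (5.64-fold). Per Mb covered by the whole list the means were 145 ± 42.4 and 479 ± 38.7 bp (SD, n = 2 each; 3.30-fold; exact permutation p = 0.333). Whether the ratio differs between this interval and that before Meg3 was not tested.

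**Figure D2:**
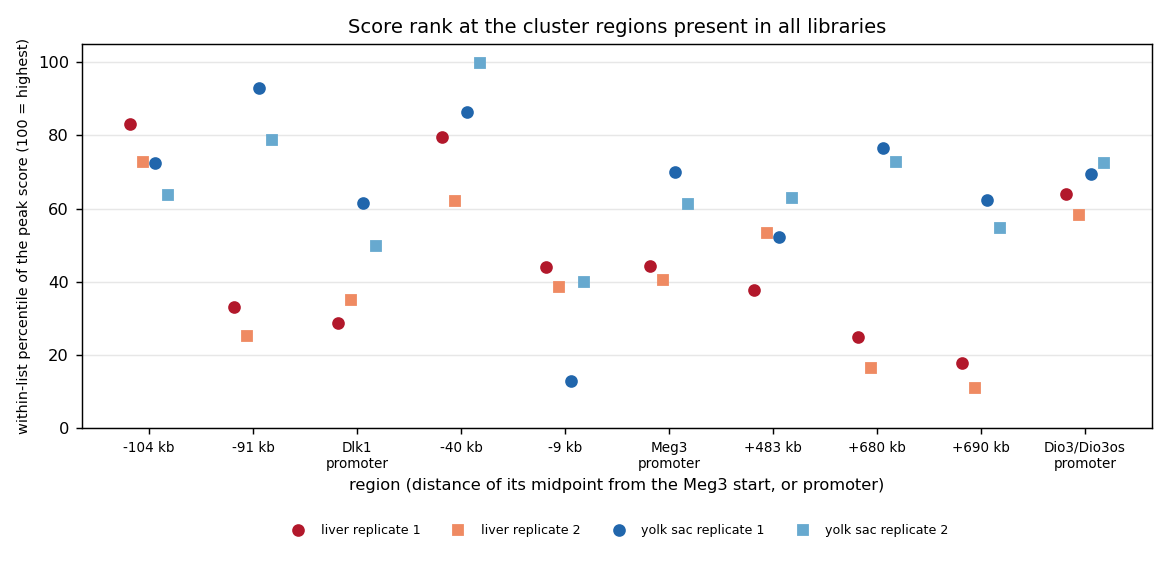
Within-list percentile of the score (vertical axis, 100 is the highest) at the 10 cluster regions present in all 4 libraries, placed in genome order with the distance from the Meg3 start. Each point is 1 library, and for the Meg3 region in yolk sac replicate 2 it is the higher-scoring upstream peak (61.3). The blue points lie above the red ones at 7 regions and below them at the one at -104 kb.

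**Figure D3:**
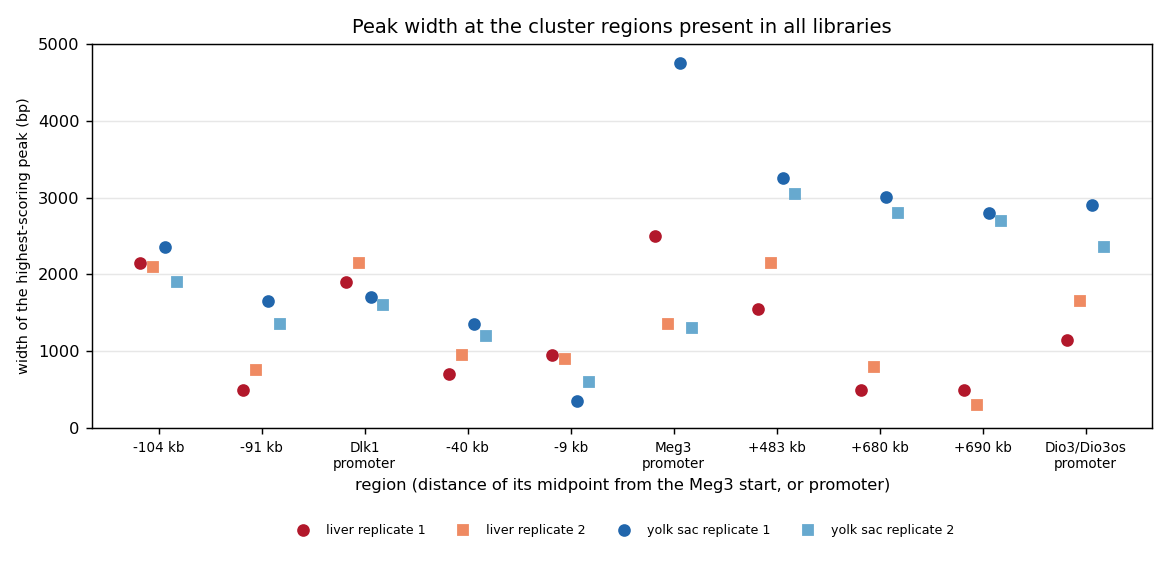
Width in bp of the highest-scoring peak of each of the same 10 regions, 1 point per library. The regions at +680 and +690 kb are 302 to 802 bp wide in liver and 2702 to 3002 bp in yolk sac, and the Dlk1 promoter and the region at -9 kb are the ones at which both liver points lie higher.

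Over the 10 cluster regions present in all 4 libraries, 7 ranked higher in yolk sac and 1 in liver. The background is needed to read this, since over all 15689 such regions 39.3% ranked higher in yolk sac and 20.8% in liver. Among those not at a promoter, 3814 regions, the shares were 50.9% and 16.4%. Among the 11875 at a promoter they were 35.6% and 22.2%. The promoter class takes any annotated start, so it holds the regions at -9.2 and +483.2 kb beside those of Dlk1, Meg3 and Dio3. Of these, the Dlk1, Meg3 and Dio3 regions ranked higher in yolk sac, and the groups overlapped at the others. Away from promoters, the region at -103.6 kb ranked higher in liver and those at -91.0, -40.0, +680.1 and +690.4 kb higher in yolk sac. The median difference was 22.8 points in the cluster (range -14.9 to 56.7) and 5.34 points over all shared regions. For width, 6 of 10 were wider in yolk sac and 2 in liver, against 42.2% and 18.6% over all shared regions. The shares were 53.3% and 15.6% among shared regions away from promoters, and 38.6% and 19.5% among those at promoters. The median ratio of widths was 1.64-fold in the cluster and 1.10-fold over all. With widths divided by the median of their list, 7 and 1 of 10 were wider, against 68.6% and 10.5%, so on that scale the cluster's share was close to the background.

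**Figure D4:**
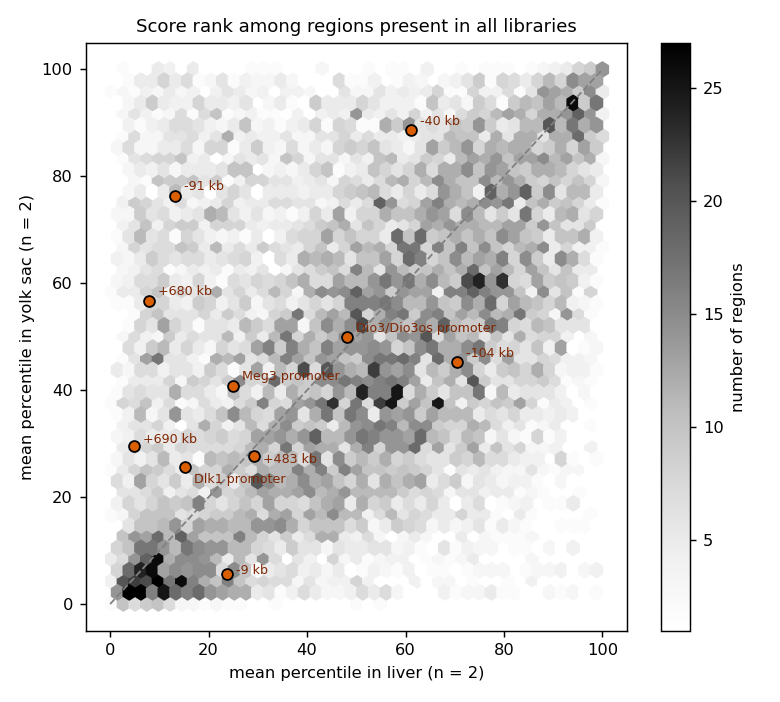
Mean percentile in liver (horizontal axis) and yolk sac (vertical axis) among the 15689 regions present in all 4 libraries, n = 2 libraries each. The grey hexagons count regions, the orange points are the 10 cluster regions and the dashed line marks equal percentiles. The regions at -91, -40, +680 and +690 kb lie above the line, those at -104 and -9 kb below it, and the Dio3 and +483 kb points lie close to it.

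The set of peaks that a rank is taken over changed the reading for the promoters. Ranked among the regions present in all 4 libraries, 6 cluster regions were higher in yolk sac and 2 in liver, against 26.5% and 33.8% of all shared regions. The shares were 36.9% and 26.9% among shared regions away from promoters, and 23.1% and 36.1% among those at promoters. The median difference was then 13.2 points in the cluster and -2.39 points over all. Ranked within the 24333 top peaks of each list, with lower peaks set to 0, 3 were higher in yolk sac and 6 in liver, against 14.6% and 53.8%. The regions at -91.0, -40.0, +680.1 and +690.4 kb were higher in yolk sac on the mean under all 4 ways, and those at -103.6 and -9.2 kb were higher in liver on the mean under all 4. At the promoters of Dlk1, Meg3 and Dio3 and at +483.2 kb the sign turned.

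**Figure D5:**
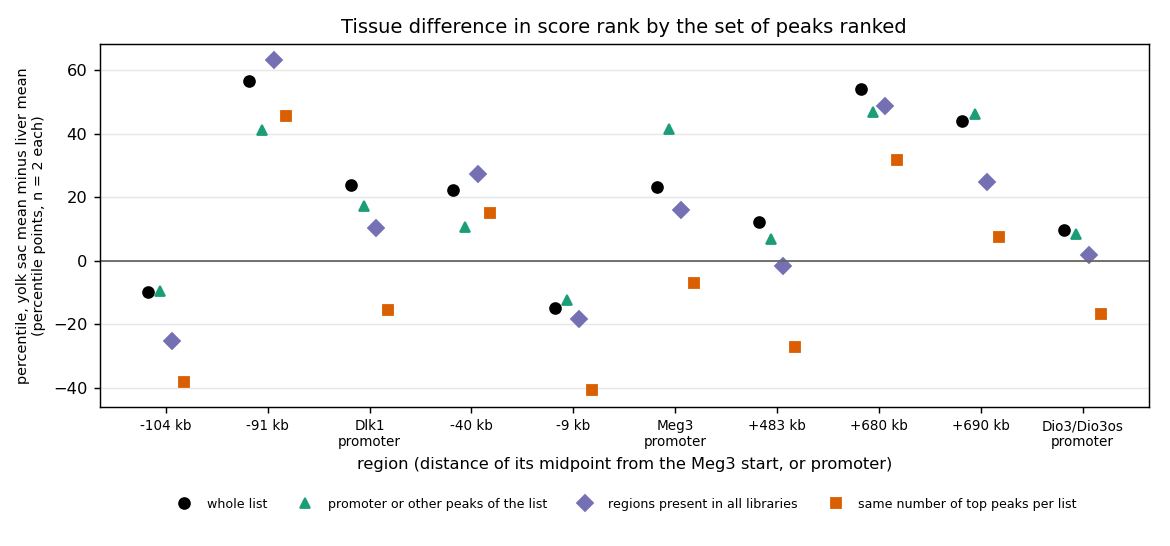
Difference in percentile (yolk sac mean minus liver mean, n = 2 each) at the 10 shared cluster regions under 4 ways of ranking. The marks of the Dlk1, Meg3, Dio3 and +483 kb regions lie on both sides of 0, and those of the other 6 regions lie on 1 side. The Meg3 mark for promoter or other peaks (41.4) uses, for yolk sac replicate 2, the upstream peak of the region, which is ranked with the other peaks.

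The order of the 10 regions was more alike between replicates than between tissues. Spearman's rho of the percentiles over the 10 regions was 0.952 for the liver pair and 0.867 for the yolk sac pair, and between 0.067 and 0.285 for the 4 pairs of a liver with a yolk sac library. For widths it was 0.812 and 0.648 within tissues and between -0.141 and 0.325 across them. These values are a description over 10 regions that share their libraries.

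Of the 44 cluster regions, 18 were in both yolk sac libraries only and 2 in both liver libraries only. Over the whole series these numbers were 20163 and 4047 of 61095 regions. The 18 yolk-sac-only regions of the cluster had a median percentile of 47.8 (range of regional means 20.0 to 86.5) and a median width of 1165 bp. The 20163 yolk-sac-only regions of the whole series had medians of 43.1 and 727 bp. The 2 liver-only regions of the cluster, before Dlk1 and within Rian, stood at mean percentiles of 17.5 and 15.4 with widths of 577 and 777 bp. The 4047 liver-only regions of the series had medians of 39.9 and 752 bp.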

How the data were processed

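Each library's file lists dREG peaks with chromosome, start, end and a deposited score without a unit, and the score is the authors' own, called per library. The submitters' processing notes name mm10, Bowtie2 and bedtools, while versions and the dREG settings are not given in the sources used here. Peak starts fall on a 50 bp grid except 3, and ends except 8, so widths have that resolution. The members, lists and alternatives were chosen with earlier results of these data known.

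Peaks sharing 1 bp or more across libraries were joined into a region, which is represented in a library by its highest-scoring peak. Scores were turned into mid-rank percentiles within a list, and a promoter peak lay within 500 bp of a GENCODE M21 start site (GRCm38). Named items are the 8 genes, every region between Dlk1 and Meg3, every cluster region present in all 4 libraries and the strongest tissue-only regions. The tissue comparison is an exact permutation test, two-sided, with 6 assignments. The region functions were tested on simulated lists. Python 3.11.15, numpy 2.4.6, pandas 2.3.3, scipy 1.17.1 and matplotlib 3.10.9 were used.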

Additional observations from a re-analysis of the deposited data

How the results depend on the processing

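The lists give no read counts, so depth, and with it the weakest site that each list could hold, is unknown. Of 281 alternative values for 35 results, 257 kept their direction (for counts, stayed within 1.5 times), though some of them changed in size, 18 moved and 6 turned sign. The number of shared cluster regions that ranked higher in yolk sac was 7, and 3 with the 24333 top peaks of each list. When 1 library was left out, which left 10 to 12 shared regions, it was 7 to 9. The number that ranked higher in liver was 1. It was 2 when ranked among the regions present in all 4 libraries, 6 with the 24333 top peaks, and 2 when ranked among promoter peaks or among other peaks. With 1 library left out it was 1 to 4, with 2 without liver replicate 2 and 4 without yolk sac replicate 2. The number wider in yolk sac was 6, and 6 to 8 with 1 library left out. The number wider in liver was 2, fell to 1 with widths divided by the list median, where Dlk1 was lost, and was 2 to 4 with 1 library left out, where 4 came without either yolk sac replicate. The log2 ratio of covered length between Dlk1 and Meg3 was 0.74, and 0.56 to 0.92 with 1 library left out. It was 2.45 in the higher-scoring 50% of each list and 0.02 with the 24333 top peaks.

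With the 24333 top peaks the percentile difference turned to -15.5 at the Dlk1 promoter region, -7.07 at the Meg3 region, -16.9 at the Dio3 and Dio3os region and -27.0 at the region at +483.2 kb, where it was -1.50 among the regions present in all 4 libraries. The cause was not tested. The log2 width ratio of the Meg3 region was 1.30 without yolk sac replicate 2 and -0.57 without yolk sac replicate 1, because the remaining yolk sac library is then represented by its upstream peak. The 9 single values that moved were log2 width ratios of 0 at Begain and at -103.6 kb.

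With the replicate number as a block, 8 regions ranked higher in yolk sac, the added one being at +483.2 kb, and 1 in liver, 6 and 2 were wider, and the log2 ratio of covered length was 0.74. Replicates 1 and 2 did not deviate together across tissues (correlation over 15689 shared regions -0.01 for rank and -0.015 for width). Such a correlation cannot show whether libraries with the same replicate number share a pool, litter or run, and the labels do not say. Outside the 10 regions, the upstream Begain peak also ranked higher in yolk sac within both pairs.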

Other observations

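A list of genes that set, maintain or remove DNA methylation and other marks at imprinted regions was examined beside the cluster. All 4 lists had a promoter peak for 14 of 18 such genes, and of these 3 ranked higher in yolk sac and 3 in liver. The maintenance methyltransferase gene Dnmt1 stood at percentiles 85.0 and 90.0 in liver and 92.6 and 93.5 in yolk sac. Its partner Uhrf1 stood at 72.2 and 58.1 against 73.4 and 84.0, and Dnmt3a at 39.8 and 57.4 against 76.8 and 61.5. The demethylase genes Tet2 (84.4 and 84.5 against 60.5 and 82.7) and Tet3 (96.4 and 97.3 against 82.2 and 55.5) and the Polycomb gene Eed (87.8 and 92.6 against 84.1 and 82.8) ranked higher in liver. Zfp57, whose product binds methylated imprinting control regions, stood at 75.6 and 91.5 in liver and 86.9 and 80.8 in yolk sac, with overlap. Aff3 had no promoter peak in liver replicate 1 and stood at 29.6 in liver replicate 2, 82.4 and 81.2 in yolk sac. The counts of 3 in each direction stand beside 34.4% and 22.1% over all protein-coding genes.

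At the downstream edge of the interval, both yolk sac libraries had a peak that began at or just past its last bases. It lay at chr12:110381101-110381852 in replicate 1 (752 bp, percentile 57.0) and chr12:110380901-110381902 in replicate 2 (1002 bp, percentile 68.7).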
